A study of Mus musculus with 2 samples.

Results

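Mast cells, basophils and eosinophils are granule-bearing cells of allergy and of defence against parasites, and 9 genes that mark them were followed in RNA from sorted mouse blood stem cells. The genes were taken by name, through their Entrez identifiers, from the 17216 genes listed in at least 1 of 2 libraries. They were the granule protease genes Cpa3, Mcpt8 and Prss34, the histamine-forming enzyme gene Hdc, the receptor genes Fcer1a, Ms4a2 and Cd200r3, and the eosinophil granule genes Prg2 and Epx. One library came from Ccp3-/- C57BL/6 mice, which lack cytosolic carboxypeptidase CCP3, an enzyme that trims glutamate residues from proteins, and the other from wild type littermates. Both held cells from a gate for long-term haematopoietic stem cells (LT-HSCs), negative for lineage markers and CD48 and positive for Sca-1, c-Kit and CD150. The sources used here do not give the age, sex or number of animals per library, nor the deleted part of the gene.

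These cells arise in bone marrow from progenitors that descend from stem cells. Mast cells and basophils display a receptor that holds IgE antibody, and antigen that binds this IgE makes them release histamine and proteases from granules. Basophils circulate in blood, mast cells mature in tissues and depend on the receptor Kit, and eosinophils carry cationic granule proteins and respond to interleukin 5. GATA2 is needed for mast cells and basophils, and GATA1 for eosinophils. Progenitors of these lineages already transcribe several granule genes before they are recognisable as mature cells.

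With 1 library per genotype no difference had a replicate check and no test between genotypes was possible. Values are FPKM (fragments scaled by transcript length and library depth), which can be compared between genes because they are per length. Each ratio of FPKM values carries a 95% counting interval from reads estimated through the spacing of low FPKM values, which gave about 14.2 M reads in the knockout-labelled library and 15.4 M reads in the wild type library. The interval covers counting error only. Agbl3, which encodes CCP3, was listed at 0.66 FPKM in the knockout-labelled library and 1.11 FPKM in the wild type library, from about 15 and 23 reads. Their ratio of 0.595 had an interval of 0.290 to 1.19, so this transcript did not check the genotype label, and "knockout-labelled" is used throughout. The libraries also stood apart in sex-linked RNA, with Xist at 44.2 FPKM in the knockout-labelled and 5.38 FPKM in the wild type library and the Y-linked gene Eif2s3y at 11.5 and 44.6 FPKM. Against the gate, Cd48 was listed at 113.9 FPKM in the knockout-labelled and 136 FPKM in the wild type library, above Slamf1, which encodes CD150, at 3.40 and 2.14 FPKM. In bulk RNA, fewer cells of a type and less RNA per cell cannot be told apart.

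The 9 genes did not move as a block. On the deposited scale granule protease genes had lower levels in the knockout-labelled library, Hdc was higher, and the most abundant gene, Prg2, had a ratio near 1. For Fcer1a and Ms4a2, of the IgE receptor, the counting interval of the ratio spanned 1. All 9 genes were listed in both libraries, and 8 of them averaged 1 FPKM or more over the libraries, the exception being Cd200r3. Genes above this minimum, 11985 in all, are called expressed below. On the log2(FPKM + 1) scale, which understates the change of low genes, 1 of these 8 (Hdc) was higher by 1.5-fold or more in the knockout-labelled library and 1 (Prss34) was lower by 1.5-fold or more. Of all expressed genes, 6.11% passed 1.5-fold upward and 6.13% downward, so with 8 genes a count of 1 in each direction is near the background. None of the 8 differed by 2-fold, which 1.21% of expressed genes did upward and 1.55% downward. The median difference was 0.04 over the 8 genes and 0.01 over all expressed genes, but it turned to −0.15 over the 6 genes that averaged 5 FPKM or more and was 0.22 with the FPKM sums of the libraries set equal. Under that scaling the median over all genes was 0.18, and 12.3% of genes passed 1.5-fold upward and 3.32% downward.

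**Figure D1:**
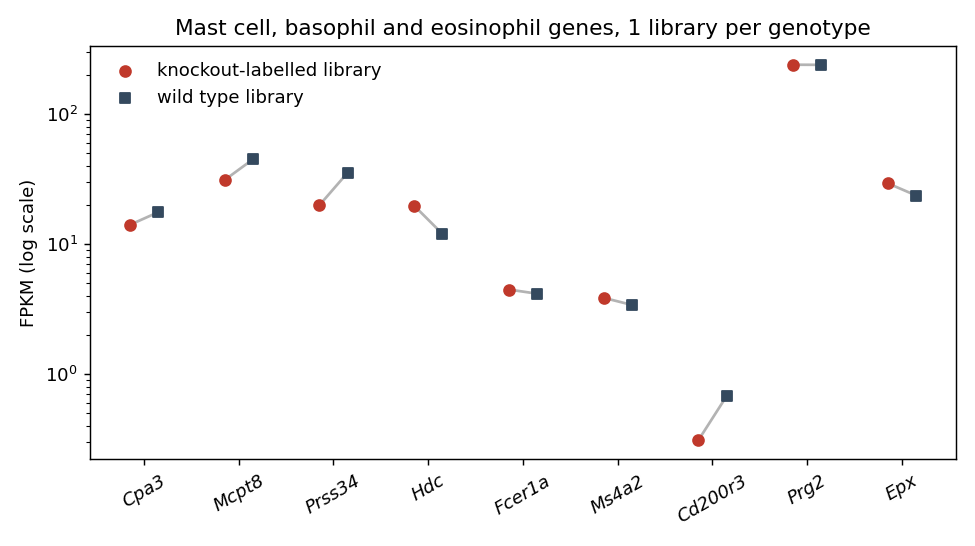
FPKM on a log scale for each of the 9 genes in the knockout-labelled library (circles) and the wild type library (squares), 1 library each, with a line joining the pair. Prg2 stands highest in both libraries, at 240 and 239 FPKM, and Cd200r3 lowest, at 0.31 and 0.68 FPKM.

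Abundance in both libraries was dominated by 1 gene. Prg2, the major basic protein of eosinophil granules, made up 66.1% of the summed FPKM of the 9 genes in the knockout-labelled library and 62.7% in the wild type library. It ranked 243rd in the knockout-labelled and 272nd in the wild type library among all genes. Mcpt8, Epx, Prss34, Hdc and Cpa3 spanned 14.1 to 31.1 FPKM in the knockout-labelled library and 12.0 to 44.9 FPKM in the wild type library. Fcer1a and Ms4a2 were both below 5 FPKM in each library. The order from the highest to the lowest was Prg2, Mcpt8, Epx, Prss34, Hdc, Cpa3, Fcer1a, Ms4a2 and Cd200r3 in the knockout-labelled library. In it the counting intervals of Mcpt8 (31.1 FPKM) and Epx (29.4 FPKM), of Prss34 and Hdc, and of Fcer1a and Ms4a2 overlapped. In the wild type library Prss34 came before Epx and Cpa3 before Hdc, and among neighbours in the order the intervals overlapped between Fcer1a and Ms4a2 alone. The sum over the 9 genes was 362 FPKM in the knockout-labelled and 381 FPKM in the wild type library, a ratio of 0.951, and without Prg2 it was 123 and 142 FPKM, a ratio of 0.865. The sum over all genes was also lower in the knockout-labelled library, at 506124 FPKM against 577420 FPKM. These ratios are therefore not a fall particular to the 9 genes.

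All 3 granule protease genes had lower levels in the knockout-labelled library. Prss34, a basophil serine protease also called mMCP-11, was listed at 19.9 FPKM in the knockout-labelled library and 35.5 FPKM in the wild type library, from about 333 and 643 reads. Its ratio was 0.560 (95% counting interval 0.489 to 0.640), the lowest among the 8 expressed members. Mcpt8, the basophil protease mMCP-8 used as a lineage marker in mice, was listed at 31.1 FPKM in the knockout-labelled and 44.9 FPKM in the wild type library, a ratio of 0.692 (0.603 to 0.791). Cpa3, a carboxypeptidase stored in mast cell and basophil granules, was listed at 14.1 and 17.6 FPKM, a ratio of 0.798 (0.682 to 0.932). All of these intervals lie below 1, as did those of 27.1% of all expressed genes. They hold for the deposited scale and were not recomputed under other scalings. With equal FPKM sums the differences on the log2(FPKM + 1) scale were −0.63 for Prss34, −0.33 for Mcpt8 and −0.13 for Cpa3. The basophil proteases Mcpt8 and Prss34 summed to 51.0 FPKM in the knockout-labelled and 80.5 FPKM in the wild type library, a ratio of 0.633.

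Transcript length moved with these differences. Genes of similar length to Mcpt8 (845 bases) had a median difference of −0.30 on the log2(FPKM + 1) scale, those near Prss34 (1216 bases) −0.20 and those near Cpa3 (1458 bases) −0.14, each over the 200 nearest genes. The differences of the genes themselves were −0.52 for Mcpt8, −0.81 for Prss34 and −0.31 for Cpa3. After subtraction of the median of genes of similar length, a step chosen after seeing the data, they were −0.22 for Mcpt8, −0.61 for Prss34 and −0.16 for Cpa3, so that all 3 remained below 0 and Prss34 remained past 1.5-fold. No counting interval was computed for the centred values, so a lower level of Cpa3 beyond counting error was not shown after centring. Among the 200 genes nearest in length to Prss34, 14.5% passed 1.5-fold downward.

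**Figure D2:**
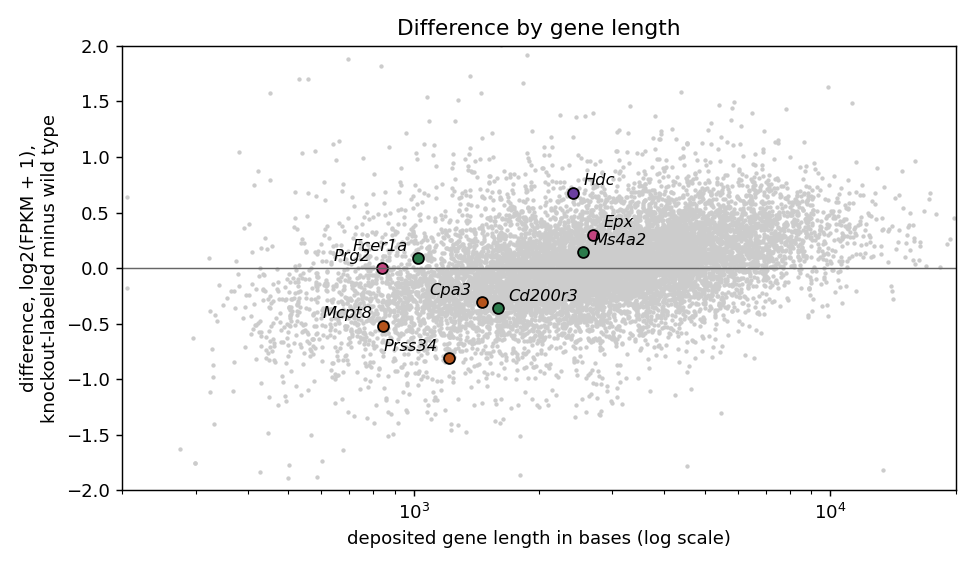
Difference between the libraries on the log2(FPKM + 1) scale, knockout-labelled minus wild type, against the deposited gene length in bases on a log scale, with every expressed gene in grey and the 9 genes as coloured points; genes beyond the axes are not drawn. The grey cloud slopes upward, and Prss34, at −0.81, and Hdc, at 0.68, lie farthest from 0 among the 9 genes.

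The DNA just upstream of the protease genes is shown because these genes were lower together and GATA factors are known regulators of mast cells and basophils. The sequences are the 250 bases before the RefSeq start in build GRCm38.p6, at chr3:20242182-20242431 on the minus strand for Cpa3, chr14:56085198-56085447 on the minus strand for Mcpt8 and chr17:25298144-25298393 on the plus strand for Prss34. Capitals mark the letters AGATAA, bound in general by GATA factors, or their reverse complement TTATCT on the printed strand.
Cpa3: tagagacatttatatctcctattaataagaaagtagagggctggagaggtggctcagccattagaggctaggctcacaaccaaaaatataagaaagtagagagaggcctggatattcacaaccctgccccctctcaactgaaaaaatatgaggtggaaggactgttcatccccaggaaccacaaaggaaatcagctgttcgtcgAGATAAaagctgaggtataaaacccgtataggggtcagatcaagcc
Mcpt8: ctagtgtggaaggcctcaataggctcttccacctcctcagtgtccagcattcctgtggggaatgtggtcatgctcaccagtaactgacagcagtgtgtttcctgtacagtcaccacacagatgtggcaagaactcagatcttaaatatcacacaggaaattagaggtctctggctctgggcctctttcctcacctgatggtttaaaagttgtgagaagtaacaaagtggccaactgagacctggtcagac
Prss34: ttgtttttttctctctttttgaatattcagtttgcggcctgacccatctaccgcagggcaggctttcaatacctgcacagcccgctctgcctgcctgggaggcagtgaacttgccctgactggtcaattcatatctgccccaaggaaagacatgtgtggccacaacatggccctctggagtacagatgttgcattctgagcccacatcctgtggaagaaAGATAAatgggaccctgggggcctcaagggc
The motif stood 46 to 41 bases upstream of the start in Cpa3 and 31 to 26 bases upstream in Prss34, and its letters were not in the Mcpt8 window. Of the 9 genes, 8 were in the RefSeq promoter table, and 5 of these 8 held the motif (Cpa3, Prss34, Ms4a2, Fcer1a and Cd200r3), while Mcpt8, Hdc and Epx did not. Among all 27025 genes with such a window 11.4% held it, and a match of letters is a description, not a site. Genes with the motif were among both those with lower levels in the knockout-labelled library (Prss34, Cpa3) and those whose interval spanned 1 (Fcer1a, Ms4a2). No other motif was searched.

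The other secretory proteases of mast cells were at or near 0. Of the 13 genes in the list of mast cell and basophil granule proteins, 5 were listed in neither library, namely Cma2, Mcpt1, Mcpt2, Mcpt9 and Tpsab1. The chymase gene Cma1 was listed at 0.60 FPKM in the knockout-labelled and 0.19 FPKM in the wild type library, and Mcpt4 at 0.15 and 0.07 FPKM. The tryptase gene Tpsg1 appeared in the knockout-labelled library alone, at 0.06 FPKM, and Tpsb2 at 0.12 FPKM in the wild type library alone. These 4 genes were named after their values were seen. Of the 4 expressed genes of this list, Prss34 passed 1.5-fold downward and 0 upward, and the fourth gene beside the 3 proteases was Srgn, the core protein of the proteoglycan that packs granule proteases in many blood cells, at 936 and 793 FPKM. The median difference of these 4 was −0.41, and −0.23 with equal FPKM sums. Among all expressed genes 6.11% passed 1.5-fold upward and 6.13% downward.

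Mcpt8 lies in a cluster of granule protease genes on chromosome 14, next to Ctsg, the cathepsin G gene of neutrophil precursors. The RefSeq gene order places Mcpt4 on one side of Mcpt8 and Ctsg on the other. Ctsg was listed at 1832 FPKM in the knockout-labelled and 895 FPKM in the wild type library, a ratio of 2.05 (2.004 to 2.09), while that of Mcpt8 was 0.692. Neighbours therefore differed in opposite directions. Epx lies near other peroxidase genes on chromosome 11, and neighbours there also differed in both directions. The expressed gene next to Epx, Mks1, was listed at 3.13 FPKM in the knockout-labelled and 5.11 FPKM in the wild type library, a ratio of 0.613 (0.479 to 0.787), whereas Epx was higher in the knockout-labelled library. The peroxidase genes beyond it were also higher there. They are Mpo, of neutrophil precursors, at 2792.5 FPKM in the knockout-labelled and 1842 FPKM in the wild type library, and Lpo, at 0.78 and 0.32 FPKM. The choice of Ctsg, Mks1, Mpo and Lpo was made with their values known.

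Hdc had the highest ratio of the 9 genes. Its enzyme, histidine decarboxylase, makes histamine from histidine and is expressed in mast cells, basophils and some other myeloid cells. Hdc was listed at 19.8 FPKM in the knockout-labelled and 12.0 FPKM in the wild type library, from about 670 and 439 reads. The ratio was 1.65 (1.46 to 1.87), and the difference of 0.68 on the log2(FPKM + 1) scale was the same after centring on genes of similar length, whose median was near 0. The counting intervals of Hdc and Epx were the only 2 of the 9 that lay above 1, against 31.1% of all expressed genes. The upstream 250 bases of Hdc, at chr2:126618679-126618928 on the minus strand, are shown beside those of the proteases because Hdc differed in the opposite direction. They hold no capitals since neither AGATAA nor TTATCT was found. Other spellings of a GATA motif were not searched, so their absence was not shown.
Hdc: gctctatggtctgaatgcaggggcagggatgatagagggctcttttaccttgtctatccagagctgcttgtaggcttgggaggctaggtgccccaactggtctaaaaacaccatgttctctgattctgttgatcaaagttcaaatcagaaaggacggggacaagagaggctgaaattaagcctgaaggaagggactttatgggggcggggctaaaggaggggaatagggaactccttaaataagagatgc

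Genes of histamine and lipid mediator synthesis went both ways. Of 11 genes in this list, all of them expressed, Hdc passed 1.5-fold upward and 1 gene passed it downward, and the median difference was 0.13. As 6.11% of all expressed genes passed 1.5-fold upward and 6.13% downward, 1 of 11 in each direction is near the background. The lower gene was Ltc4s, leukotriene C4 synthase, at 2.33 FPKM in the knockout-labelled and 5.38 FPKM in the wild type library, a ratio of 0.433 (0.248 to 0.730), named after its value was seen. Alox5ap, the partner protein of 5-lipoxygenase, was listed at 96.3 and 132 FPKM, and Lta4h, which makes leukotriene B4, at 182 and 136 FPKM. Hnmt, which inactivates histamine, was listed at 7.23 FPKM in the knockout-labelled and 5.86 FPKM in the wild type library. Slc18a2, the transporter that loads histamine into granules, was listed at 16.5 and 14.9 FPKM and was named after its value was seen.

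The IgE receptor genes had ratios whose counting intervals spanned 1. Fcer1a encodes the chain that binds IgE, and Ms4a2 the beta chain that amplifies the signal. Fcer1a was listed at 4.48 FPKM in the knockout-labelled and 4.16 FPKM in the wild type library, from about 63 reads in each, a ratio of 1.08 (0.749 to 1.56). Ms4a2 was listed at 3.87 and 3.41 FPKM, from about 138 and 132 reads, a ratio of 1.13 (0.884 to 1.45). A difference of 1.5-fold in Fcer1a was within its interval, so at this depth equality was not shown. After centring on genes of similar length the difference on the log2(FPKM + 1) scale was 0.30 for Fcer1a, against 0.09 without centring, and 0.17 for Ms4a2, against 0.14. Cd200r3, an activating receptor of mouse basophils and mast cells, was listed at 0.31 FPKM in the knockout-labelled and 0.68 FPKM in the wild type library, from about 7 and 16 reads, and its ratio of 0.456 had an interval of 0.159 to 1.17. Any reads shared between Cd200r3 and its close relatives Cd200r1 and Cd200r4 would make this value uncertain. The windows upstream of the receptor pair, at chr1:173227230-173227479 on the minus strand for Fcer1a and chr19:11623720-11623969 on the minus strand for Ms4a2, are shown because both held AGATAA or its reverse complement and neither ratio had an interval that excluded 1.
Fcer1a: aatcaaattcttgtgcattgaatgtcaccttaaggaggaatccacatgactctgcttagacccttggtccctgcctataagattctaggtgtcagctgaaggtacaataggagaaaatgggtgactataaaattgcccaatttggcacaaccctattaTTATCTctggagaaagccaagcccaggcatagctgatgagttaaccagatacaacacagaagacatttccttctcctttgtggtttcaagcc
Ms4a2: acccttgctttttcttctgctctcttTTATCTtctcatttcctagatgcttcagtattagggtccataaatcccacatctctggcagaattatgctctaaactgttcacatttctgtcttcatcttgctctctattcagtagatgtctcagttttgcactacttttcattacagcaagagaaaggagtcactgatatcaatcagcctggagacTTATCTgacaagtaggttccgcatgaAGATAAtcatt
Ms4a2 held the motif at 3 places, of which the nearest lay 11 to 6 bases upstream of the start, and Fcer1a held it once, 92 to 87 bases upstream.

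**Figure D3:**
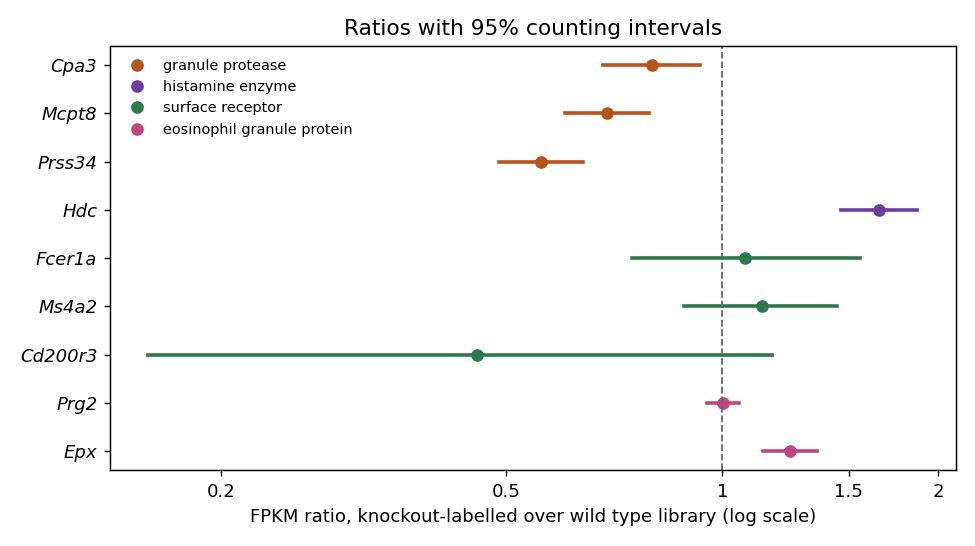
Ratio of FPKM values, knockout-labelled over wild type library, on a log scale for each of the 9 genes, coloured by role, with bars for the 95% counting interval. The intervals of Cpa3, Mcpt8 and Prss34 lie below 1, those of Hdc and Epx above 1, and those of Fcer1a, Ms4a2, Cd200r3 and Prg2 span 1.

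Genes of the IgE receptor and of the signalling downstream of it differed in both directions by mostly less than 1.5-fold. All 20 genes of this list were expressed, 0 passed 1.5-fold upward and 1 downward, and the median difference was −0.0012. Among all expressed genes 6.11% passed 1.5-fold upward and 6.13% downward. The counting interval lay above 1 in 5 of the 20 and below 1 in 7, against 31.1% above and 27.1% below among all expressed genes. The lower gene was Lat, an adaptor phosphorylated after receptor binding, at 18.8 FPKM in the knockout-labelled and 30.8 FPKM in the wild type library. The kinase gene Lyn was listed at 38.2 and 28.4 FPKM, Pik3r1 at 25.1 and 16.9 FPKM, and Plcg1 at 14.96 and 20.2 FPKM. Fcer1g, the signalling chain shared with other Fc receptors and named after its value was seen, was listed at 73.3 FPKM in the knockout-labelled and 88.1 FPKM in the wild type library, a ratio of 0.831 (0.750 to 0.920). Its level was far above the chains particular to the IgE receptor.

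The eosinophil granule genes stayed within 1.5-fold in both libraries. Prg2 was listed at 240 FPKM in the knockout-labelled and 239 FPKM in the wild type library, from about 2730 and 2937 reads, a ratio of 1.002 (0.951 to 1.06). Epx, eosinophil peroxidase, was listed at 29.4 and 23.7 FPKM, a ratio of 1.24 (1.14 to 1.36). With Prg3, the neighbour of Prg2 that encodes a related protein, at 22.4 and 19.0 FPKM, and the eosinophil-associated ribonuclease genes Ear1 (68.5 and 76.6 FPKM), Ear2 (48.4 and 40 FPKM) and Ear6 (44.0 and 40.3 FPKM), 6 of the 7 list genes were listed, and Ear10 was listed in neither library. None of the 6 was 1.5-fold apart, and their median difference was 0.17. The Ear genes are close copies among which reads could be split, so single values of these are uncertain. Prg2 is short (838 bases), and genes of similar length had a median difference of −0.29. After centring on them the difference of Prg2 on the log2(FPKM + 1) scale was 0.30, against 0.0031 without centring. With equal FPKM sums the difference of Prg2 was 0.19, so its ratio near 1 holds for the deposited scale.

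Eosinophil receptors were low. Of 7 surface and enzyme genes in this list, 5 were expressed and 0 of these passed 1.5-fold on the log2(FPKM + 1) scale, on which their median difference was 0.05. Adgre1, the gene of the surface protein F4/80 and named after its value was seen, was listed at 1.67 FPKM in the knockout-labelled and 0.94 FPKM in the wild type library, a ratio of 1.78 (1.22 to 2.64) that the added 1 FPKM brings below 1.5-fold. Siglecf, a sialic acid receptor of eosinophils, was listed at 5.37 FPKM in the knockout-labelled and 5.15 FPKM in the wild type library, and the lipoxygenase gene Alox15 at 4.53 and 6.65 FPKM. The interleukin 5 receptor gene Il5ra (2.99 and 2.28 FPKM) and the eotaxin receptor gene Ccr3 (0.33 and 0.40 FPKM) were named after their values were seen. High levels of Prg2 stood beside low levels of receptor genes that mature eosinophils carry.

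Ratios between pairs of these genes within a library do not depend on how a library is scaled. They are not centred for transcript length, however. Genes of similar length had median differences of −0.30 for Mcpt8, −0.29 for Prg2, −0.20 for Prss34 and −0.14 for Cpa3. For the longer Hdc and Epx these medians were −0.0039 and 0.05, so pairs of short with long genes carry this trend. Each of the 3 proteases was lower relative to Hdc, Epx, Prg2 and Ms4a2 in the knockout-labelled library, with intervals below 1, whereas the Cpa3 to Fcer1a interval and those of the proteases to Cd200r3 spanned 1. The ratio of Prss34 to Hdc was 1.004 in the knockout-labelled library and 2.96 in the wild type library, and the first was 0.339 times the second (95% counting interval 0.283 to 0.407). The ratio of Mcpt8 to Hdc was 1.57 and 3.75, and that of Mcpt8 to Prg2 was 0.130 and 0.188. The proteases also shifted against each other. The ratio of Cpa3 to Prss34 was 0.708 in the knockout-labelled and 0.496 in the wild type library, and the first was 1.43 times the second (1.16 to 1.75). Mcpt8 to Prss34 was at 1.56 and 1.27, with an interval of the shift just above 1, and Cpa3 to Mcpt8 was at 0.452 and 0.392, with an interval that spans 1 (0.935 to 1.42). The ratio of Ms4a2 to Fcer1a was 0.864 and 0.820, and that of Prg2 to Epx 8.15 and 10.1. Of the 36 pairs, 23 had an interval that excluded 1, and Hdc was in 8 of these and Prss34 in 7. The pairs reuse the same few genes, and the share among pairs of other genes was not computed. Among single expressed genes the counting interval lay above 1 in 31.1% and below 1 in 27.1%. The count of 23 was therefore not shown to be particular to these genes. The pair intervals are not adjusted for the number of pairs.

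**Figure D4:**
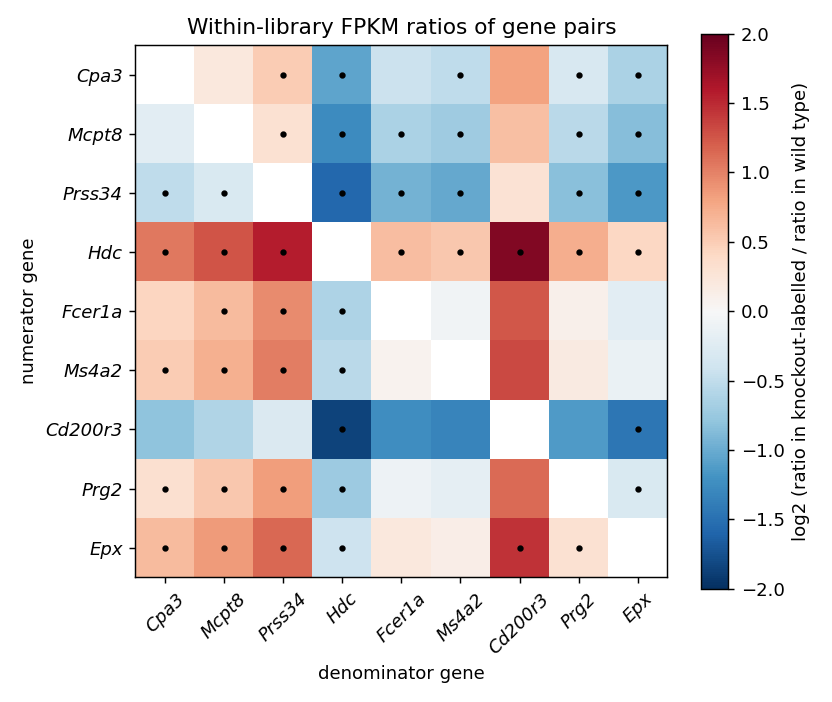
Each cell gives the FPKM ratio of the row gene to the column gene in the knockout-labelled library over the same ratio in the wild type library, as log2, with red for a higher ratio in the knockout-labelled library and dots where the 95% counting interval excludes 1. The Hdc row is red throughout, and the Prss34 row is blue against every gene except Cd200r3.

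Receptors shared with other blood cells went both ways. Of 19 surface genes of mast cells and basophils, 12 were expressed, of which 2 passed 1.5-fold upward and 1 downward, and the median difference was 0.0019. Since 6.11% of all expressed genes passed 1.5-fold upward and 6.13% downward, such small counts among 12 genes are not far from the background. Csf2rb, the signalling chain of the interleukin 3 and interleukin 5 receptors, was listed at 46.0 FPKM in the knockout-labelled and 25.9 FPKM in the wild type library, but it shares sequence with Csf2rb2 (12.4 and 8.87 FPKM, named after its value was seen), which makes both uncertain. Mcemp1 was listed at 27.8 and 16.3 FPKM, the prostaglandin receptor gene Ptger3 at 7.27 and 10.9 FPKM, and the activation marker gene Cd69 at 29.3 and 40.9 FPKM. The lower gene was Siglech (2.79 and 6.37 FPKM, named after its value was seen), which is better known from plasmacytoid dendritic cells. The mast cell receptor gene Mrgprb2 was listed in neither library, and Kit was listed at 56.5 FPKM in the knockout-labelled and 59.7 FPKM in the wild type library.

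Among transcription factors of these lineages, 6 of 19, all expressed, passed 1.5-fold upward in the knockout-labelled library and 0 downward, and the median difference was 0.29. Upward, 6.11% of all expressed genes passed 1.5-fold. Those 4 that averaged 5 FPKM or more were Cebpb (22.0 FPKM in the knockout-labelled and 10.6 FPKM in the wild type library), Cebpe (29.5 and 15.3 FPKM), Cebpa (49.2 and 27.8 FPKM) and Xbp1 (70.3 and 42.4 FPKM). CEBPA directs granulocyte progenitors, CEBPE acts in the terminal steps of neutrophils and eosinophils, and XBP1 is needed for eosinophils. The other 2 were Id1 (5.65 and 2.55 FPKM) and Bhlhe40 (5.65 and 3.36 FPKM). Gata2, at 46.7 FPKM in the knockout-labelled and 44.5 FPKM in the wild type library, and Gata1, at 7.85 and 7.5 FPKM, did not pass 1.5-fold, and Mitf, a mast cell factor, was listed at 1.86 and 1.24 FPKM. These 5 genes were named after their values were seen. Of 18 neutrophil markers, which include Cebpe, 11 also passed 1.5-fold upward, and their part in the values of these factors was not tested.

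Cytokine genes of activated mast cells and basophils were low or lower. Of 8 genes, 3 were expressed and all 3 passed 1.5-fold downward in the knockout-labelled library, and their median was −1.18. Of all expressed genes, 6.13% passed 1.5-fold downward. After centring on genes of similar length the median of the 3 was −0.86. These cytokine genes were the chemokine genes Ccl3 (15.5 FPKM in the knockout-labelled and 42.4 FPKM in the wild type library) and Ccl4 (6.96 and 17.0 FPKM), and Tnf (2.83 and 6.16 FPKM, named after its value was seen). All 3 are also made by many other activated leukocytes. The genes Il13 and Il9 were listed in neither library, and Il4, the basophil cytokine, was listed at 0.36 FPKM in the knockout-labelled and 0.79 FPKM in the wild type library, named after its value was seen.

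**Figure D5:**
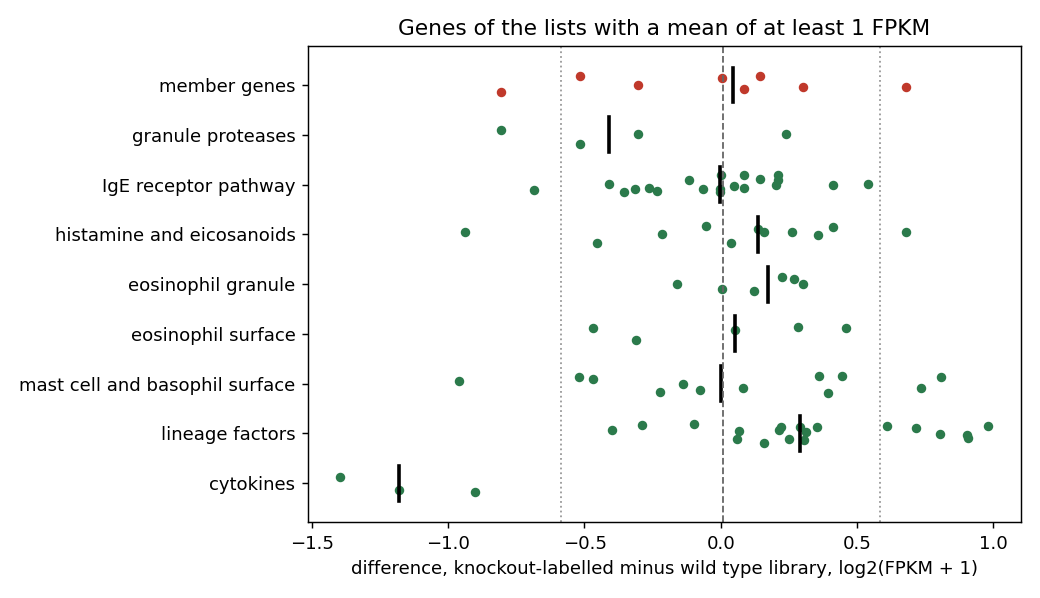
Difference of each expressed gene, knockout-labelled minus wild type library, on the log2(FPKM + 1) scale for the member genes (8 of 9 drawn, in red) and the other lists (green), with a black bar at each list's median, a dashed line at the median of all genes and dotted lines at 1.5-fold. The IgE receptor pathway has its median near 0 and the lineage factors at 0.29, and the 3 cytokine genes lie left of the lower dotted line.

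Markers of other blood cells moved between the libraries beside these genes. The counts below stand beside shares of 6.11% upward and 6.13% downward past 1.5-fold among all expressed genes. Neutrophil markers, of which 11 passed 1.5-fold upward and 0 downward, had a summed level of 12212 FPKM in the knockout-labelled and 8775 FPKM in the wild type library. Of 10 monocyte markers, 3 were higher and 1 lower (573 and 472 FPKM in sum). B cell markers were lower in 10 of 11 (67.3 and 154 FPKM), dendritic cell markers in 6 of 9 expressed genes (168 and 289 FPKM) and T cell markers in 4 of 8 (36.5 and 50.7 FPKM). Of 11 erythroid markers, 4 were lower and 1 higher, and the median difference was 0.06. The 2 globin genes among them summed to 263 FPKM in the knockout-labelled and 1221 FPKM in the wild type library, and the other 9 markers to 302 and 322 FPKM. Of 7 expressed megakaryocyte markers 3 were lower and 1 higher (61.0 and 74.6 FPKM). Of 3 expressed natural killer markers 0 passed 1.5-fold (6.80 and 9.92 FPKM over the list), and 2 of 12 stem cell markers were lower (433 and 573 FPKM). Within the 3 lineages of the 9 genes, basophil markers summed to 95.8 and 120.03 FPKM, mast cell markers to 99.5 and 97.3 FPKM, of which Kit gave more than any other, and eosinophil markers to 461 and 446 FPKM. Mcpt8 and Prss34 gave 51.0 and 80.5 FPKM of the basophil sums. Of 6 expressed basophil markers 1 was higher (Hdc) and 1 lower (Prss34), with a median difference of −0.07. Of 5 expressed mast cell markers 1 was higher and 0 lower, and 0 of 8 expressed eosinophil markers passed 1.5-fold. With so few genes in these lists, counts of 0 or 1 are near the background. Lists share genes, and the part of other cell types in the differences of Hdc and the proteases was not tested.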

How the data were processed

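RNA from cells sorted as LT-HSCs was measured in 2 libraries, 1 per genotype, and grouped by the genotype label. The authors deposited, for each gene, an Entrez identifier, a length in bases and an FPKM value, as the file headers name them. Per the submitters' processing notes the tools included HISAT, HISAT2 and RSEM and the build was mm9; their versions, order and settings: not given in the sources used here. Symbols came from the RefSeq annotation of GRCm38.p6, which matched 17169 of 17216 identifiers. It was used for names and gene order, and promoter sequences are credited to RefSeq. Amino acid sequences were not used here.

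A gene absent from a file counted as 0 FPKM. Differences are log2(FPKM + 1), knockout-labelled minus wild type, and expressed genes (mean of 1 FPKM or more) were counted past 1.5-fold. Reads were estimated from genes with 1 transcript of 150 to 700 bases, whose FPKM times length, less 37 bases in the knockout-labelled and 42 in the wild type library, fell on multiples of 70.3 and 64.8. Of 175 such values 84.6% and of 183 such values 79.8% came within 0.15 of whole reads, and step and offset were chosen on these values. Intervals of ratios are exact conditional 95% intervals, and those of pairs are conditional odds ratio intervals, all from rounded estimated reads. Strandedness of the counting: not stated.

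Named beside the 9 genes were, per list, all with a mean of at least 5 FPKM, or where more than 6 passed, the 4 with the largest absolute difference, genes listed in neither library, and Agbl3. With 2 libraries no likeness of pattern between genes could be computed. The members and lists were chosen with earlier results of these data known. Alternatives covered the pseudocount, the filter, the scaling, the length offset and length centring. Steps and intervals were also tested on simulated data. The tools were scipy 1.17.1, pandas 2.3.3, matplotlib 3.10.9 and numpy 2.4.6 under Python 3.11.15.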

Additional observations from a re-analysis of the deposited data

How the results depend on the processing

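No paired analysis was possible because each genotype has 1 library, and for the same reason no library could be left out. Across other pseudocounts, other scalings and length centring, which was chosen after seeing the data, 48 of 54 member values counted as unmoved. A value did so if it shifted by less than the distance from the middle to an end of its log2 counting interval. The 6 that moved all lay under equal FPKM sums or length centring. With equal sums they were Hdc (from 0.68 to 0.86), Prg2 (from 0.0031 to 0.19) and Epx (from 0.30 to 0.49). After length centring they were Mcpt8 (from −0.52 to −0.22), Prss34 (from −0.81 to −0.61) and Prg2 (to 0.30). The counting interval of Cd200r3 is wide, so its move from −0.36 to −0.93 with a pseudocount of 0.1 FPKM counted as unmoved. Hdc and Prss34, the only members past 1.5-fold, kept their sign. The sign held in 8 of the 9 genes, the exception being Prg2. Without the length offset all 9 counting intervals kept their place below, above or across 1. This check could change little, since the offsets of 37 and 42 bases are close. With a pseudocount of 0.1 FPKM the eosinophil surface list had 1 higher gene. With a pseudocount of 5 FPKM there were 0 higher members, 0 higher and 0 lower histamine and eicosanoid genes and 0 lower surface genes of mast cells and basophils, and the cytokine median was −0.88. With equal FPKM sums, which moved the median of all genes to 0.18, medians were 0.22 (members), −0.23 (granule proteases), 0.19 (IgE receptor pathway), 0.31 (histamine and eicosanoids), 0.36 (eosinophil granule), 0.21 (eosinophil surface), 0.11 (mast cell and basophil surface), 0.48 (lineage factors) and −1.01 (cytokines), and 2 IgE receptor pathway genes were higher and 0 lower, with 2 higher histamine and eicosanoid genes. With no filter the medians were −0.040 (granule proteases) and −0.65 (cytokines). At a mean of 5 FPKM or more they were −0.15 (members), −0.21 (eosinophil surface) and −1.29 (cytokines), with 0 lower histamine and eicosanoid genes and 0 lower mast cell and basophil surface genes, since fewer genes are counted there. After length centring they were 0.21 (members), −0.19 (granule proteases), 0.36 (eosinophil granule), 0.15 (lineage factors) and −0.86 (cytokines), with 0 lower IgE receptor pathway genes. For the other settings the cause was not tested. Depth limits Cd200r3, at about 7 reads in the knockout-labelled and 16 in the wild type library, more than the other members.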
